A study of Mus musculus with 6 samples.

Results

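The solute carriers are the genes whose symbol starts with Slc and a number, and those described here were the ones expressed in splenic regulatory T (Treg) cells, chosen by their mean level alone. Of the 37305 genes measured, 358 rows carried such a name (356 different symbols), and 118 symbols had a mean of at least 5 FPKM over the 6 libraries, the highest row being kept where a symbol occurred more than once. FPKM is the number of fragments scaled by transcript length and by the mapped fragments of the library. The members just inside this limit were *Slc16a3* at 5.40, *Slc41a3* at 5.24 and *Slc25a14* at 5.13 FPKM, and the symbols just outside it were *Slc12a2* at 4.96, *Slc27a4* at 4.91 and *Slc12a9* at 4.79. In every library 96 of the 118 reached 5 FPKM. In 110 both genotype means did, so the remaining 8 reached it in 1 genotype only, and 6 further symbols reached 5 FPKM in 1 genotype but not over all libraries. Of the 356 symbols, 165 had a mean of at least 1 FPKM and 36 were listed at 0 in all 6 libraries.

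The study compared Treg cells lacking JunB, a transcription factor of the AP-1 family, with Treg cells that have it. Control libraries came from mice with loxP-flanked *Junb* alleles and no Cre (*Junb* fl/fl), and *Junb*-deficient libraries from mice with the same alleles and Cre under the *Cd4* promoter (*Cd4* Cre *Junb* fl/fl). Each genotype had 3 libraries. All mice were on the C57BL/6 background, sex-matched and 6 to 12 weeks old, and the cells were sorted as CD4+CD25+ from spleen. *Cd4* Cre acts in every T cell that has passed the CD4-positive stage in the thymus, conventional T cells included, so the deletion was not limited to Treg cells, and the Cre itself was absent from the controls.

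Solute carriers move small molecules across the plasma membrane and the membranes of organelles. An activated T cell is known to raise its import of glucose, amino acids and iron, and the import of large neutral amino acids feeds the kinase complex mTORC1. The Slc25 family sits mostly in the inner mitochondrial membrane, where it exchanges nucleotides, phosphate and metabolites with the cytosol.

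Some properties of the libraries touch the results. *Junb* was at 256 to 921 FPKM in controls and at 37.8 to 180 in *Junb*-deficient libraries, with the highest value of each genotype in the library numbered 1. These are also the libraries whose sample names lack the lane suffix that the other 4 carry, and their columns were assigned by elimination. The Treg and CD4 T cell markers, all 7 of them detected, summed to 1534 to 1721 FPKM in controls and to 1312 to 1435 in *Junb*-deficient libraries, with no overlap. Single markers went both ways on the log2(FPKM + 1) scale, *Junb*-deficient minus control. The difference was 0.08 for *Foxp3*, 0.19 for *Il2ra* and 0.34 for *Cd4*. It was -0.24 for *Cd3e*, -0.51 for *Cd3g*, -0.70 for *Ctla4* and -0.23 for *Ikzf2*. The 5 CD8 T and NK markers, all detected, summed to 28.7 to 40.3 FPKM in controls and to 29.4 to 47.8 in *Junb*-deficient libraries. The part of these marker differences in the genotype results was not tested. The 9 B cell markers, all detected, summed to 1133 and 1367 FPKM in control 1 and *Junb*-deficient 1, to 193 and 204 in the other controls and to 346 and 403 in the other *Junb*-deficient libraries. The 10 myeloid and dendritic markers summed to 178 and 279 FPKM where the number was 1 and to 26.4 to 76.6 in the others. Of 9 erythroid and platelet markers, 2 were at 0 in all libraries, and the sum ran from 3.36 to 35.5 FPKM. In RNA of sorted cells, fewer cells of a type and less RNA per cell cannot be told apart.

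Taken by what they carry, the 118 members fell into 27 mitochondrial carriers of the Slc25 family, 17 metal ion carriers, 16 nucleotide sugar carriers of the Slc35 family, 15 amino acid and peptide carriers, 13 ion and pH carriers, 7 carriers of glucose and other sugars, 6 of lipids, choline and vitamins, 6 of monocarboxylates and organic ions, 4 vesicular, lysosomal or other carriers and 3 nucleoside carriers. The remaining 4 symbols are not carriers although their name starts with Slc: *Slc9a3r1*, a scaffold protein under the plasma membrane, *Slc7a6os*, *Slc4a1ap* and the pseudogene *Slc2a4rg-ps*. The 118 genes together summed to 2660, 2660 and 2658 FPKM in controls 1 to 3 and to 2819, 2536 and 2596 in *Junb*-deficient libraries 1 to 3. The total of all genes ran from 496684 to 862049 FPKM and was lowest in control 1 and *Junb*-deficient 1, so these sums were 0.536%, 0.328% and 0.308% of the total in controls 1 to 3 and 0.533%, 0.385% and 0.451% in *Junb*-deficient libraries 1 to 3. The mitochondrial class alone held 33.1% to 39.7% of that sum.

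**Figure D1:**
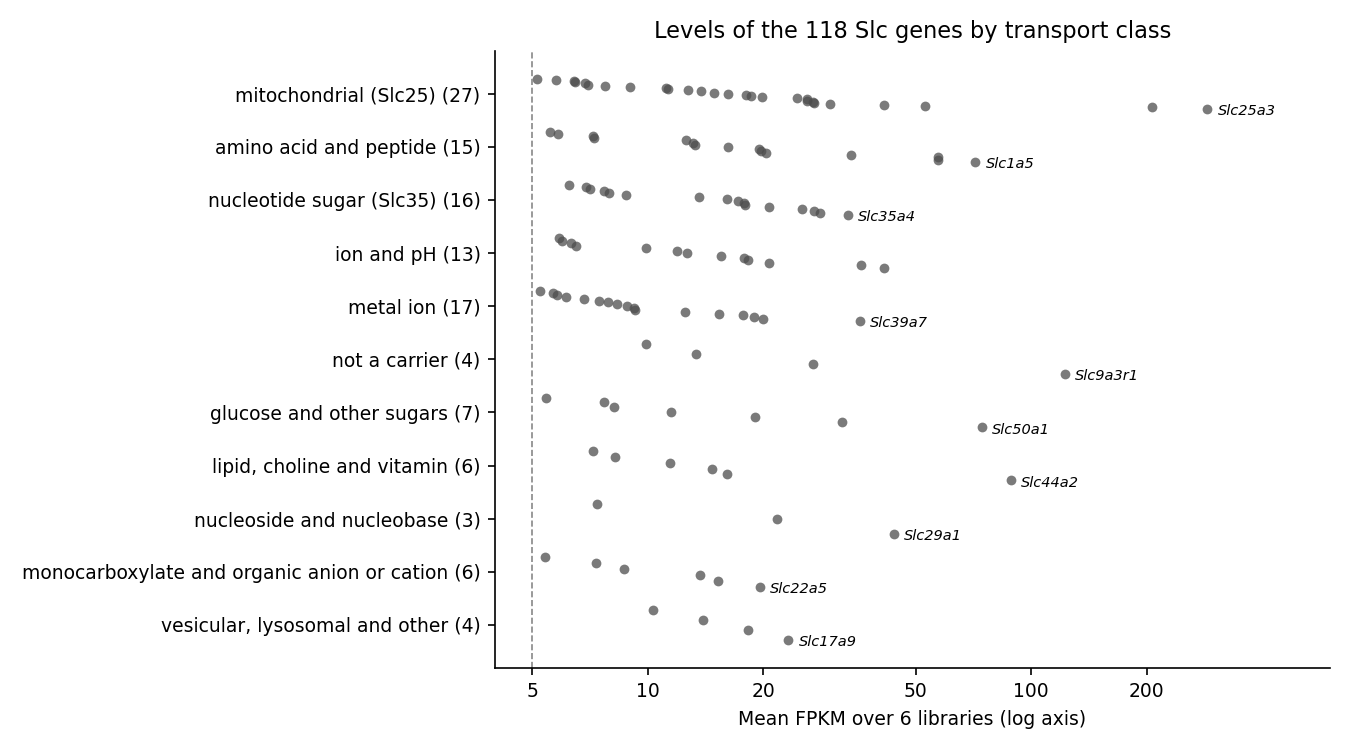
Mean level of each of the 118 genes over the 6 libraries, in FPKM on a log axis, by class, with the highest gene of most classes named. The mitochondrial class holds the highest genes, *Slc25a3* at 287 and *Slc25a5* at 207 FPKM, and the line marks the limit of 5 FPKM by which the genes were chosen.

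The first comparison asked which carriers differed between *Junb*-deficient and control Treg cells. A gene was said to have risen or fallen where limma gave p under 0.05 before adjustment together with a difference larger than 0.5 on the log2(FPKM + 1) scale, *Junb*-deficient minus control. Differences are given with their standard error (SE). By this rule 5 of the 118 members rose, *Slc43a1*, *Slc16a3*, *Slc38a7*, *Slc25a23* and *Slc9a8*, and 2 fell, *Slc25a24* and *Slc25a14*, while 111 did not pass. Over all 11781 genes tested, 1.67% rose and 2.89% fell, against 4.24% and 1.69% of the members. The members' shares include 3 genes, *Slc43a1* and *Slc16a3* among those that rose and *Slc25a14* among those that fell, that reached 5 FPKM in 1 genotype only and so had to differ, and nothing is read from the shares. The median difference was 0.04 over the members and -0.05 over all genes. None of the differences passed limma's test after adjustment over all genes (0 of the members and 0 of all genes, with 10 members and 636 genes at an unadjusted p under 0.05), and the smallest adjusted p of a member was 0.834.

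The libraries numbered 1 deviated together, while numbers 2 and 3 were not clear pairs. Control 3 correlated more with *Junb*-deficient 2 (0.41) than with *Junb*-deficient 3 (0.24). With the replicate number as a block 7 members rose and 4 fell, beside 3.58% and 7.20% of all genes. A term for the lane suffix in place of the block also gave 7 and 4, beside 415 and 840 of all genes. The block added *Slc16a6* and *Slc7a1* to those that rose and *Slc25a33* and *Slc25a40* to those that fell. With the block and the exon length correction together 5 rose and 3 fell, and *Slc7a1*, *Slc25a33* and *Slc9a8* were not called, at 0.44, -0.41 and 0.42. Without both libraries numbered 1, 15 members rose and 6 fell, beside 6.74% and 13.2% of all genes. Among those 4 libraries the *Junb*-deficient ones had the higher B cell marker sums given above, the higher myeloid sums (54.3 and 76.6 against 26.4 and 35.6 FPKM) and the higher CD8 T and NK sums (44.0 and 47.8 against 28.7 and 35.6), whose part in these counts was not tested. Leaving out single libraries moved the counts as follows: 17 rose and 7 fell without control 1, 2 and 0 without control 2, 2 and 1 without control 3, 4 and 0 without *Junb*-deficient 1, 4 and 1 without *Junb*-deficient 2, and 2 and 1 without *Junb*-deficient 3. With quantile scaling the all-gene split became 257 risen and 263 fallen, and with median-ratio scaling 246 and 280, beside 197 and 340 as deposited. Both scalings left 5 members risen and 2 fallen. All 3 *Junb*-deficient libraries lay above all 3 controls for 12 members (10.2%), against 4.58% of all genes. They lay below them for 4 members (3.39%), against 6.36%. Among these are *Slc43a1* and *Slc16a3* above and *Slc25a14* below, which reached 5 FPKM in 1 genotype only, and nothing is read from these shares.

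**Figure D2:**
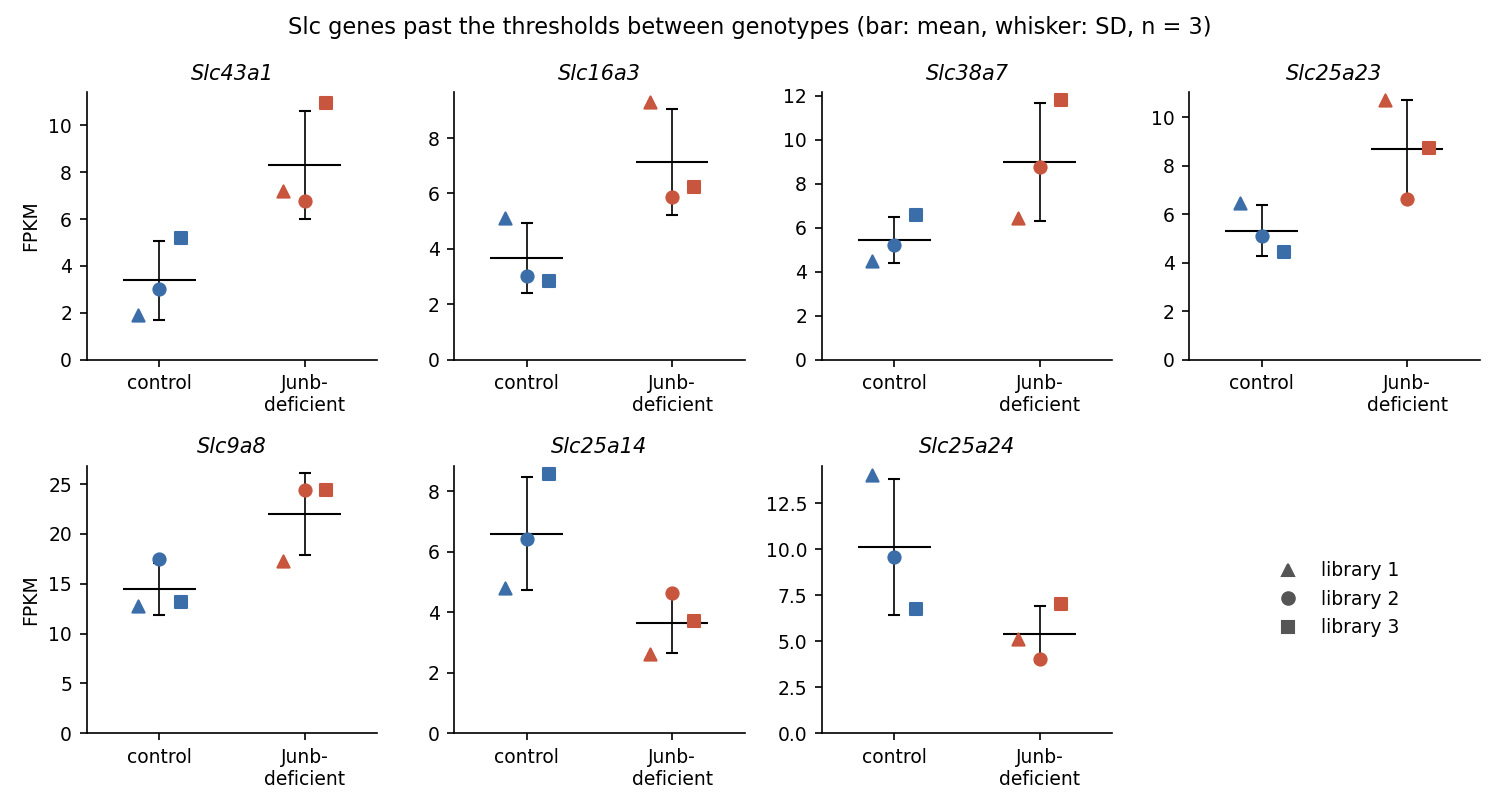
Level of the genes that rose or fell, in FPKM on axes that start at 0, with 1 point for each library (its shape gives the library number), a bar at the mean of each genotype and a whisker of 1 SD (n = 3). The points of the genotypes do not overlap for *Slc43a1*, *Slc16a3*, *Slc25a23* and *Slc25a14* and overlap for *Slc38a7*, *Slc9a8* and *Slc25a24*.

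The second comparison was between the 2 libraries numbered 1 and the other 4, with genotype in the model, because those libraries stand apart. At an adjusted p under 0.05 in limma, 18 members were higher (15.3%) and 10 lower (8.47%) in the libraries numbered 1, beside 8.66% and 11.8% of all genes. The difference over all genes followed exon length, with a median log2 difference of -0.29 in the 3929 shortest, -0.05 in the 3925 middle and 0.16 in the 3927 longest genes. The members showed the same order of medians, at -0.25, 0.07 and 0.19, and their median exon length was 4758 bases for those higher and 2285 for those lower. With each library's length trend removed, 14 members were higher and 7 lower, beside 8.05% and 9.56% of all genes, and 13 and 6 of them were among those called without the correction. Without the correction, the counts of 18 and 10 became 4 higher and 0 lower without control 1, 11 and 1 without control 2, 8 and 1 without control 3, 10 and 1 without *Junb*-deficient 2, 13 and 8 without *Junb*-deficient 1 and 19 and 10 without *Junb*-deficient 3. The share of these differences that goes with the B cell and myeloid markers was not tested.

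**Figure D3:**
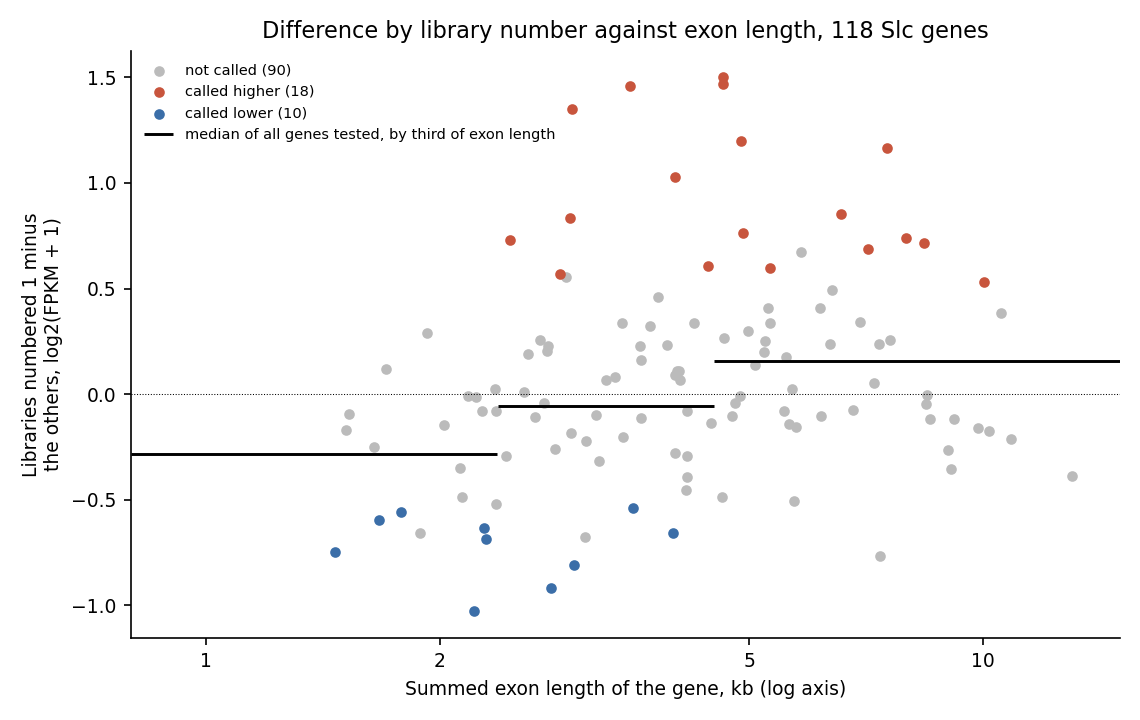
Log2 difference between the libraries numbered 1 and the other 4 against summed exon length in kb on a log axis for the 118 members, those called higher in red and those called lower in blue. Black lines give the median of all genes tested among the shortest, middle and longest genes. They run from -0.29 for the shortest through -0.05 to 0.16 for the longest genes.

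The amino acid and peptide class held the largest genotype difference and the largest shift with the libraries numbered 1. Its median log2 difference between the genotypes was 0.33, or 0.21 with the length trend removed. Of its 15 members 2 rose and none fell, beside 1.67% and 2.89% of all genes. The difference was above 0 in 11 of them, beside 5188 of all 11781 genes. Nothing is read from these counts in a small class. *Slc43a1* (chr2:84679007-84703751, mm9) encodes a facilitative carrier of leucine and other large neutral amino acids (LAT3). *Slc43a1* read 1.91, 3.03 and 5.20 FPKM in controls 1 to 3 and 7.19, 6.78 and 11.0 FPKM in *Junb*-deficient libraries 1 to 3. Every *Junb*-deficient library lay above every control, with a mean of 3.38 ± 1.67 FPKM over the controls and of 8.31 ± 2.30 over the *Junb*-deficient ones (SD, n = 3 each). *Slc43a1* rose (log2 difference 1.13, SE 0.32, adjusted p = 0.834), and it did so in all 17 other settings fitted. Its control mean lies under 5 FPKM, so it was a member through the *Junb*-deficient libraries.

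*Slc38a7* (chr8:98359820-98377439), a lysosomal glutamine carrier, was the other amino acid carrier that rose. *Slc38a7* read 4.50, 5.23 and 6.58 FPKM in controls 1 to 3 and 6.43, 8.76 and 11.8 FPKM in *Junb*-deficient libraries 1 to 3. *Junb*-deficient 1 lay just under control 3, so the groups overlapped, but each *Junb*-deficient library was above the control of its number. The difference passed (log2 difference 0.61, SE 0.25, adjusted p = 0.834) and was lost without control 1 or 2 (0.51 and 0.60) or without *Junb*-deficient 2 or 3 (0.61 and 0.42), and also with no filter on low genes or with a minimum mean of 5 FPKM.

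*Slc7a1*, which carries arginine and lysine, passed the rule with the block but not without it (log2 difference 0.55, SE 0.45 without and 0.19 with the replicate block). *Slc7a1* read 19.0, 6.09 and 6.44 FPKM in controls 1 to 3 and 21.3, 11.8 and 10.6 FPKM in *Junb*-deficient libraries 1 to 3. Both libraries numbered 1 were far above the other libraries of their genotype, and the *Junb*-deficient library was higher within each number.

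The promoters of 3 of these amino acid carriers, and of *Slc25a14* described further on, are shown because they hold a match to a motif searched. *Slc25a14* has a second RefSeq promoter that overlaps the one shown and holds the same E-box, and another without a match. *Slc7a1* has a second promoter without a match. Of the other members that rose or fell, *Slc16a3*, *Slc25a23*, *Slc9a8* and *Slc25a24* had no match in their promoters. The motifs were the AP-1 site, the class of site that JunB dimers bind, as TGANTCA, and the E-box CACGTG, bound by MYC and the MiT/TFE factors, both on either strand and neither overlapping the other. The sequences are the 250 bases before a RefSeq transcript start, from GRCm38.p6, in the direction of the gene, with the motif in capitals.
Slc43a1 (chr2:84840073-84840322, plus strand): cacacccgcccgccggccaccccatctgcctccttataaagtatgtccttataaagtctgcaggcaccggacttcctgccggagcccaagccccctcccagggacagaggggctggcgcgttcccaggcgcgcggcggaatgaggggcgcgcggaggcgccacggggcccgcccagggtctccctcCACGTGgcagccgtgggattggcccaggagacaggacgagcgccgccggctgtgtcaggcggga
Slc38a7 (chr8:95853492-95853741, minus strand): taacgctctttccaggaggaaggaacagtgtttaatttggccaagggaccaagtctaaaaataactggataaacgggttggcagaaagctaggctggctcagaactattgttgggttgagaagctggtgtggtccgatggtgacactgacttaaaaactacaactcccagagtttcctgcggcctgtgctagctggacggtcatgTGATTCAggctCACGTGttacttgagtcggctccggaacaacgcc
Slc7a1 (chr5:148399905-148400154, minus strand): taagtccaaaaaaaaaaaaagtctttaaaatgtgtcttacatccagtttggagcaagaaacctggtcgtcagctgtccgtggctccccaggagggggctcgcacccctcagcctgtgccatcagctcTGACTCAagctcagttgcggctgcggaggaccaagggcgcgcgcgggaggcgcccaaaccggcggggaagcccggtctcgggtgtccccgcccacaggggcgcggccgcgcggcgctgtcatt
Slc25a14 (chrX:48623198-48623447, plus strand): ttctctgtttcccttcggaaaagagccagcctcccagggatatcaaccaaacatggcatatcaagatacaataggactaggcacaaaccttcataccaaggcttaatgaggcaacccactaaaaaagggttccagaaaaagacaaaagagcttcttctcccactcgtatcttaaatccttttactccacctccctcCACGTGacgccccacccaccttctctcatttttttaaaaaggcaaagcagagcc

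The E-box of *Slc43a1* lies 64 bases before the start and that of *Slc25a14* 54 bases before it. In *Slc38a7* the AP-1 match lies 45 and the E-box 34 bases before the start, and in *Slc7a1* the AP-1 match lies 123 bases before it. RefSeq promoters were matched for 90 of the 118 members, giving 121 promoters. An AP-1 match was in 6 of these (4.96%), beside 6.75% of all 32851 promoters. An E-box was in 17 (14.0%), beside 6.02%. The promoters of all genes were not limited to genes expressed here, as the members were. The E-box of *Slc25a14* was counted in each of its promoters that holds it. Nothing is therefore read from these shares. A match is only a description of the letters, and binding was not looked at here.

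The most abundant amino acid carriers did not pass between the genotypes. *Slc1a5*, the glutamine and neutral amino acid exchanger ASCT2, had a mean of 76.3 ± 13.4 FPKM over the controls and of 66.8 ± 9.82 over the *Junb*-deficient ones (SD, n = 3 each), giving a log2 difference -0.18, SE 0.21. *Slc3a2*, the heavy chain with which *Slc7a5* and other light chains reach the cell surface, and *Slc7a5*, the leucine carrier LAT1, had log2 differences of -0.19 and 0.33 (SE 0.50 and 0.55). Those of *Slc38a1* and *Slc38a2*, sodium-coupled carriers of glutamine and alanine, were 0.35 and 0.22 (SE 0.33 and 0.56).

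In the libraries numbered 1 several of these genes stood apart. *Slc7a5* read 35.2, 9.53 and 9.67 FPKM in controls 1 to 3 and 33.1, 12.2 and 17.0 FPKM in *Junb*-deficient libraries 1 to 3. *Slc3a2* read 97.5, 39.6 and 42.5 FPKM in controls 1 to 3 and 95.7, 32.9 and 34.6 FPKM in *Junb*-deficient libraries 1 to 3. *Slc38a2* read 83.4, 40.0 and 28.2 FPKM in controls 1 to 3 and 119, 39.9 and 31.6 FPKM in *Junb*-deficient libraries 1 to 3. In all 3 genes the libraries numbered 1 were the highest of their genotype by a wide margin, with no overlap with the other 4. The log2 differences were 1.46, 1.35 and 1.50 (adjusted p = 0.00427, 0.00151 and 0.00349), and 1.46, 1.41 and 1.43 with the length trend removed. *Slc7a1* was higher by 1.17. In the libraries numbered 1, 7 of the 15 amino acid carriers were higher and none lower, beside 8.66% and 11.8% of all genes. The other 3 were *Slc38a1* at 0.71, *Slc43a2*, a carrier of large neutral amino acids (LAT4), at 0.53 and *Slc15a4*, a lysosomal histidine and peptide carrier, at 0.84. Without control 1 the calls of *Slc7a5* and *Slc7a1* were lost, at 1.15 and 0.87, as they were with no filter on low genes. With the length trend removed the calls of *Slc38a1* and *Slc43a2* were lost, at 0.50 and 0.27. That left 5 of the class higher and 0 lower, beside 8.05% and 9.56% of all genes. Nothing is read from these counts in a small class.

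**Figure D4:**
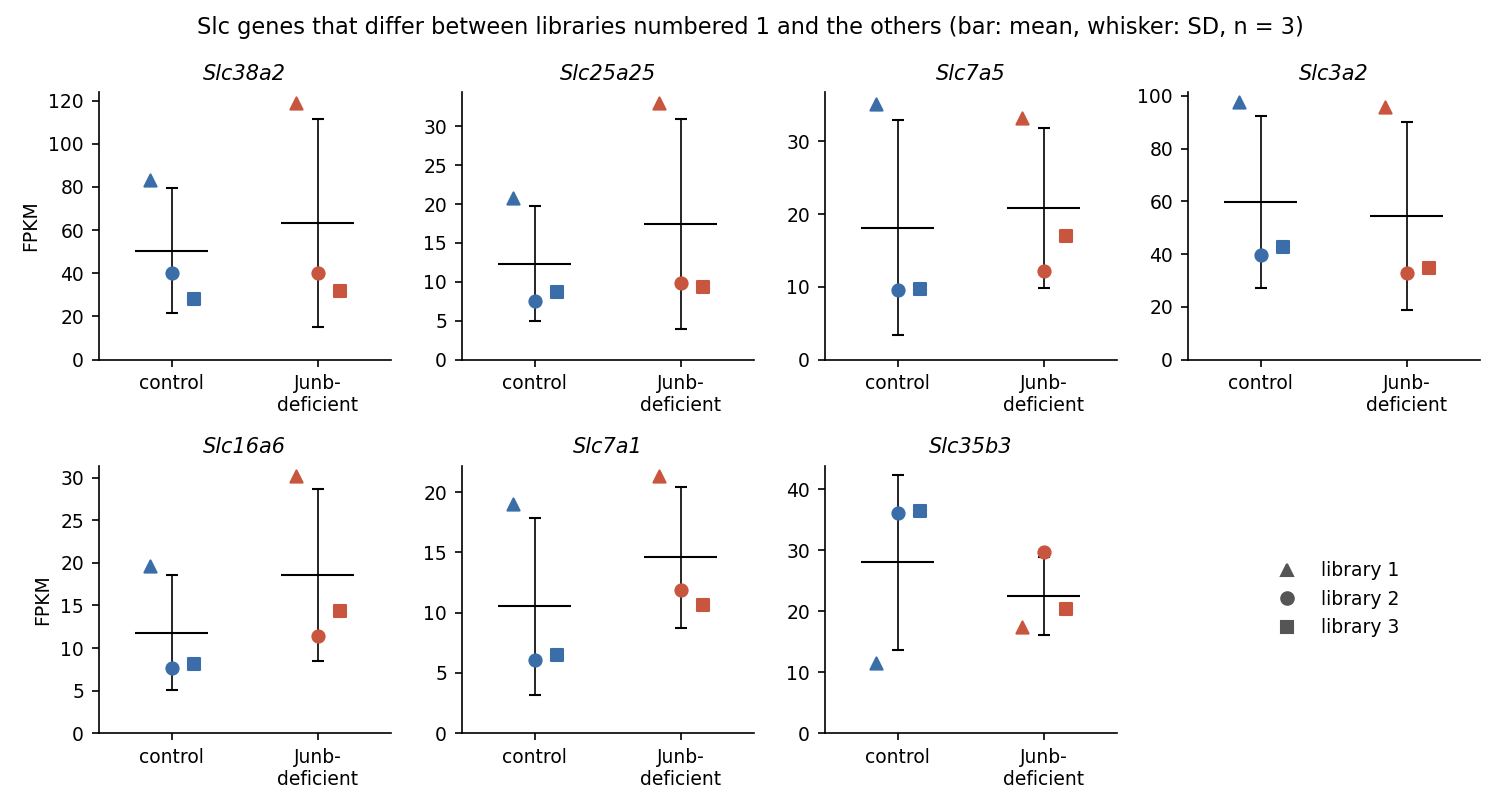
Level of 7 members with a log2 difference beyond 1 between the libraries numbered 1 and the other 4, in FPKM on axes that start at 0, with 1 point for each library (its shape gives the library number), a bar at the mean of each genotype and a whisker of 1 SD (n = 3). *Slc7a5* has its values for number 1 at 33.1 and 35.2 FPKM and lies between 9.53 and 17.0 in the other 4, and *Slc35b3* lies lower in the libraries numbered 1.

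None of the 7 carriers of glucose and other sugars rose or fell between the genotypes, with a median log2 difference of 0.04. *Slc2a1* and *Slc2a3* encode GLUT1 and GLUT3, the main glucose importers of lymphocytes. *Slc2a3* was one of the steadiest members, with a mean of 32.9 ± 3.06 FPKM over the controls and of 31.2 ± 1.81 over the *Junb*-deficient ones (SD, n = 3 each), a coefficient of variation of 7.58% over the 6 libraries and a log2 difference of -0.07 (SE 0.16). *Slc2a1* had a mean of 19.0 ± 5.31 FPKM over the controls and of 19.1 ± 4.66 over the *Junb*-deficient ones (SD, n = 3 each), with a log2 difference of 0.01 (SE 0.26). *Slc2a3* was thus the higher of the pair per length in all 6 libraries.

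*Slc2a1* was higher in the libraries numbered 1, with 25.1 and 24.0 FPKM in control 1 and *Junb*-deficient 1, while the other 4 libraries lay between 14.7 and 18.6 (log2 difference 0.57, adjusted p = 0.0380). *Slc50a1*, a sugar carrier of the SWEET family and the highest of the class at 74.2 FPKM, moved the other way, with 51.6 and 49.5 FPKM in control 1 and *Junb*-deficient 1, while the other 4 libraries lay between 75.3 and 98.4 (log2 difference -0.75, adjusted p = 0.0125). Neither gene overlapped between those sets of libraries. *Slc37a1*, a sugar phosphate exchanger, lay higher in all 3 *Junb*-deficient libraries at a log2 difference of 0.29 that did not pass (SE 0.17). *Slc2a4*, the insulin-responsive GLUT4, was listed at 0.

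The nucleoside class was the smallest, with sums of 66.1 to 79.3 FPKM in every library and none of its 3 members past either test. *Slc29a1*, the equilibrative nucleoside carrier ENT1, was the least variable of all 118 members, with a coefficient of variation of 7.27%. *Slc29a1* read 47.2, 41.2 and 45.6 FPKM in controls 1 to 3 and 44.1, 38.8 and 45.8 FPKM in *Junb*-deficient libraries 1 to 3. The genotypes overlapped (log2 difference -0.06, SE 0.16). *Slc28a2*, a sodium-coupled purine nucleoside carrier, had a mean of 22.7 ± 6.52 FPKM over the controls and of 20.7 ± 1.22 over the *Junb*-deficient ones (SD, n = 3 each) and *Slc29a3*, a lysosomal nucleoside carrier, a mean of 6.88 ± 3.51 FPKM over the controls and of 7.83 ± 1.67 over the *Junb*-deficient ones (SD, n = 3 each). Their log2 differences were -0.09 and 0.23 (SE 0.23 and 0.32).

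The 17 metal ion carriers centred on no difference between the genotypes, with 0 risen, 0 fallen and a class sum of 184 to 215 FPKM. *Slc39a7*, which releases zinc from the endoplasmic reticulum, was the highest, with a mean of 36.3 ± 2.38 FPKM over the controls and of 35.1 ± 5.84 over the *Junb*-deficient ones (SD, n = 3 each). *Slc39a1*, a zinc importer, and *Slc30a5*, which loads zinc into the secretory pathway, followed at means of 19.9 and 18.9 FPKM. Their log2 differences were -0.06, -0.03 and -0.14, none of which passed (SE 0.18, 0.17 and 0.16). *Slc30a1*, the zinc exporter of the plasma membrane, had a mean of 5.96 ± 0.128 FPKM over the controls and of 6.26 ± 1.54 over the *Junb*-deficient ones (SD, n = 3 each), a log2 difference of 0.04.

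The largest genotype difference in the class was 0.47, which did not pass. That of the iron carrier *Slc11a2* (DMT1) was close to it in size. *Slc11a2* read 11.7, 9.40 and 10.3 FPKM in controls 1 to 3 and 16.3, 11.6 and 15.9 FPKM in *Junb*-deficient libraries 1 to 3. Only *Junb*-deficient 2 fell within the range of the controls, and the difference of 0.44 did not pass (SE 0.20). *Slc39a11* and *Slc39a3*, both of the ZIP family of zinc importers, lay higher in all 3 *Junb*-deficient libraries, at 0.38 and 0.34 (SE 0.18 and 0.20). *Slc41a1*, a magnesium carrier, was the 1 member of the class that was higher in the libraries numbered 1, with 17.0 and 26.3 FPKM in control 1 and *Junb*-deficient 1, while the other 4 libraries lay between 10.2 and 14.1 (log2 difference 0.76, adjusted p = 0.0122).

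The 27 mitochondrial carriers were the most abundant class and split in direction. Of these carriers 1 rose, 2 fell and 24 did not pass, beside 1.67% risen and 2.89% fallen over all genes. Their median log2 difference was -0.08, and 0.02 with the length trend removed. *Slc25a3*, which imports phosphate for ATP synthesis, *Slc25a5*, an ADP/ATP exchanger, and *Slc25a11*, the oxoglutarate and malate carrier, were the highest, at 287, 207 and 52.8 FPKM. None passed, with log2 differences of -0.17, -0.33 and -0.12 (SE 0.23, 0.21 and 0.22). *Slc25a4*, the second ADP/ATP exchanger, lay lower in every *Junb*-deficient library (log2 difference -0.42, SE 0.15), short of the 0.5 the rule asks for. *Slc25a4* and *Slc25a5* have near-identical copies in the genome, and the handling of reads with several matches was not given in the sources used here.

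*Slc25a23* (chr17:57183134-57199286) and *Slc25a24* (chr3:108926067-108971375) encode calcium-regulated carriers that exchange ATP-magnesium for phosphate, and the pair moved in opposite directions. *Slc25a23* read 6.46, 5.10 and 4.42 FPKM in controls 1 to 3 and 10.7, 6.62 and 8.72 FPKM in *Junb*-deficient libraries 1 to 3. *Slc25a24* read 14.0, 9.60 and 6.74 FPKM in controls 1 to 3 and 5.10, 4.04 and 7.01 FPKM in *Junb*-deficient libraries 1 to 3. *Slc25a23* rose with no overlap (log2 difference 0.60, SE 0.23, adjusted p = 0.834), whereas *Slc25a24* fell with overlap, since *Junb*-deficient 3 lay above control 3 (log2 difference -0.77, SE 0.30, adjusted p = 0.834). The call of *Slc25a23* was lost without control 2 or 3 (0.58 and 0.50) or without *Junb*-deficient 1 or 3 (0.46 and 0.59). That of *Slc25a24* was lost without control 1 or 2 (-0.53 and -0.78) or without *Junb*-deficient 1 or 2 (-0.75 and -0.62), and also with no filter on low genes or without both libraries numbered 1, the latter at -0.51.

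*Slc25a14* (chrX:45976590-46015471), a carrier related to the uncoupling proteins (UCP5), fell. Its *Junb*-deficient mean lies under 5 FPKM, so it was a member through the controls. *Slc25a14* read 4.81, 6.43 and 8.56 FPKM in controls 1 to 3 and 2.62, 4.62 and 3.72 FPKM in *Junb*-deficient libraries 1 to 3. The highest *Junb*-deficient library lay just under the lowest control, so the groups did not overlap (log2 difference -0.70, SE 0.27, adjusted p = 0.834). The call was lost without control 2 or 3 (-0.70 and -0.52) or without *Junb*-deficient 1 or 3 (-0.53 and -0.72), and also with no filter on low genes or with a minimum mean of 5 FPKM.

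With the block, *Slc25a33*, a pyrimidine nucleotide carrier, and *Slc25a40*, a carrier linked to mitochondrial glutathione, fell as well. Their log2 differences were -0.57 and -0.62, with SEs of 0.30 and 0.38 unpaired and of 0.21 and 0.20 with the replicate block. Within each number the *Junb*-deficient library was the lower for both genes. *Slc25a36*, the other pyrimidine nucleotide carrier, lay higher in all 3 *Junb*-deficient libraries at 0.37, which did not pass (SE 0.18), and *Slc25a46*, an outer membrane protein of the family, lay lower at -0.33 (SE 0.16).

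*Slc25a25*, a further ATP-magnesium and phosphate carrier among the members, was the most variable of all 118, with a coefficient of variation of 67.9%. *Slc25a25* read 20.8, 7.56 and 8.64 FPKM in controls 1 to 3 and 33.0, 9.89 and 9.38 FPKM in *Junb*-deficient libraries 1 to 3. The libraries numbered 1 lay well above the rest (log2 difference 1.47, adjusted p = 0.00198), and the genotypes overlapped. *Slc25a40*, *Slc25a17*, a peroxisomal carrier, and *Slc25a20*, the acylcarnitine carrier, were lower in the libraries numbered 1, at -0.92, -0.59 and -0.56, and the calls of the latter pair were lost with the length trend removed (-0.43 and -0.40). An exon of *Slc25a25* overlaps *Naif1*, itself at 2.33 FPKM.

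Of the monocarboxylate and organic ion carriers, *Slc16a3* rose. It lies at chr11:120809794-120822182 and encodes MCT4, the lactate exporter of glycolytic cells. *Slc16a3* read 5.12, 3.02 and 2.84 FPKM in controls 1 to 3 and 9.32, 5.86 and 6.22 FPKM in *Junb*-deficient libraries 1 to 3. The genotypes did not overlap, and the difference was the second largest among the members that rose (log2 difference 0.81, SE 0.27, adjusted p = 0.834). It was lost without control 2 or 3 (0.72 and 0.69) or without *Junb*-deficient 1 (0.63). Its control mean was under 5 FPKM, and its exons overlap those of *Csnk1d* on the other strand, a gene at 53.7 FPKM with a log2 difference of 0.13, while the use of strand in the counting was not given in the sources used here.

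*Slc16a1*, the lactate and pyruvate carrier MCT1, did not pass between genotypes (log2 difference -0.03, SE 0.28) but was higher in the libraries numbered 1 by 0.61 (adjusted p = 0.0451), as was *Slc16a3* by 0.60 (adjusted p = 0.0476). Both calls were lost with the length trend removed (0.55 and 0.49). *Slc16a6*, a ketone body carrier, had 19.7 and 30.2 FPKM in control 1 and *Junb*-deficient 1, while the other 4 libraries lay between 7.69 and 14.3 (log2 difference 1.20, adjusted p = 0.00339). Its genotype difference of 0.62 passed with the block alone (SE 0.45 without and 0.16 with the replicate block), and its exons overlap *Amz2*, at 25.9 FPKM. *Slc22a5*, the carnitine importer, was the highest of the class at 19.6 FPKM, followed by *Slc16a6* at 15.2 and *Slc10a3* at 13.7.

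Among the 13 ion and pH carriers, *Slc9a8* rose, and the class median was 0.31, or 0.22 with the length trend removed. *Slc9a8* (chr2:167247212-167302500) encodes a sodium and proton exchanger of the Golgi and endosomes. *Slc9a8* read 12.7, 17.5 and 13.1 FPKM in controls 1 to 3 and 17.3, 24.4 and 24.4 FPKM in *Junb*-deficient libraries 1 to 3. *Junb*-deficient 1 lay just under control 2, and the other *Junb*-deficient libraries lay above all controls (log2 difference 0.57, SE 0.21, adjusted p = 0.834). With the length trend removed the difference was 0.42 and no longer passed, and the call was also lost without control 1 or 3 (0.49 and 0.51) or without *Junb*-deficient 2 or 3 (0.49 and 0.49).

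All 3 *Junb*-deficient libraries lay above the controls for 4 of the 13 ion and pH carriers, beside 4.58% of all genes. Nothing is read from this count in a small class, and none of the 4 passed the rule. Among them were *Slc20a1*, a phosphate importer at 35.9 FPKM, *Slc4a2*, a chloride and bicarbonate exchanger, and *Slc26a2*, a sulfate carrier. Their log2 differences were 0.34, 0.41 and 0.42 (SE 0.17, 0.16 and 0.17). *Slc12a7*, a potassium and chloride exporter, was at 20.7 FPKM, with a difference of 0.16. None of the class differed in the libraries numbered 1 at an adjusted p under 0.05 in limma (0 also at p under 0.05 before adjustment), but with the length trend removed *Slc9a8* was lower there, by 0.60 on the log2 scale (adjusted p = 0.0335).

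**Figure D5:**
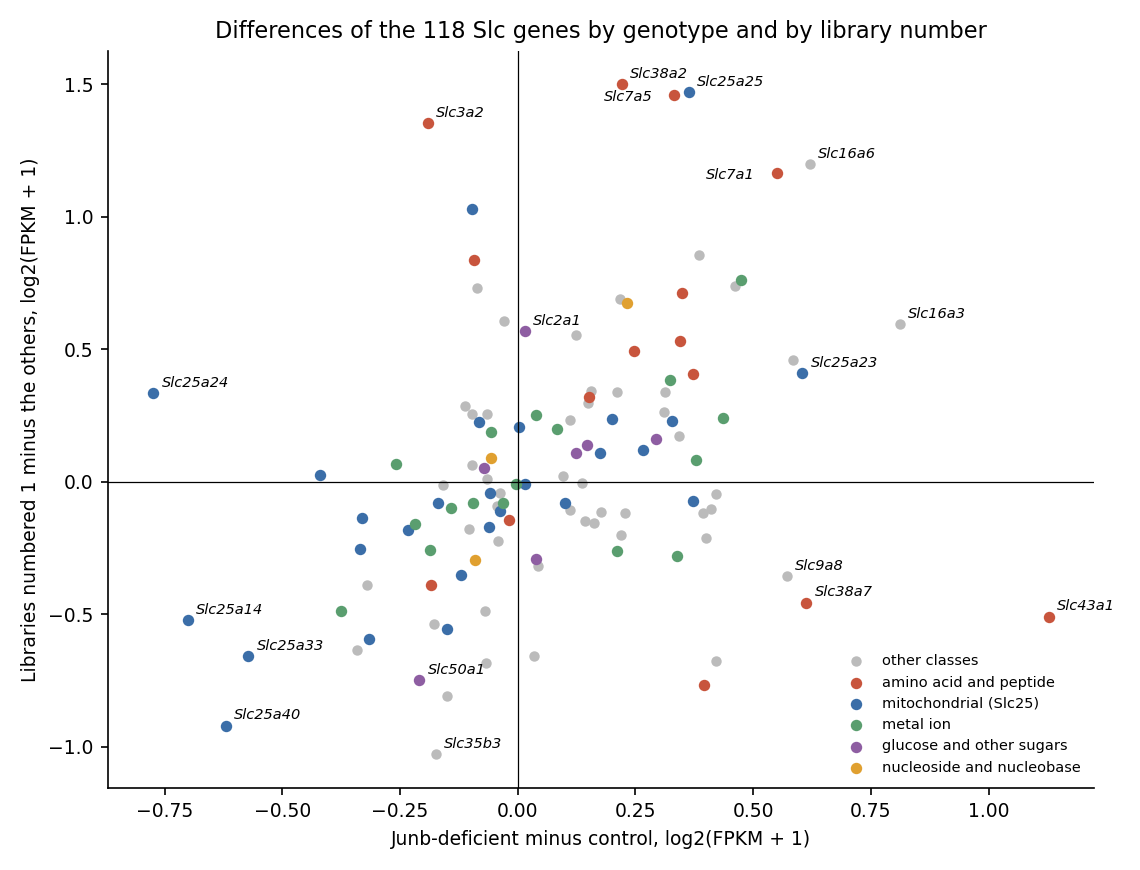
Log2 difference between genotypes (horizontal) against that between the libraries numbered 1 and the other 4 (vertical) for the 118 members, with 5 classes coloured and the others grey. *Slc43a1* lies farthest right at 1.13, and *Slc38a2*, *Slc25a25* and *Slc7a5* lie highest at 1.50, 1.47 and 1.46.

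The 16 nucleotide sugar carriers held no member that rose or fell between the genotypes. *Slc35a4*, *Slc35b2*, which brings the sulfate donor PAPS into the Golgi, and *Slc35b1*, which exchanges ATP and ADP across the endoplasmic reticulum membrane, were the highest, at 33.2, 28.1 and 27.1 FPKM. *Slc35b1* lay lower in all 3 *Junb*-deficient libraries at -0.16 (SE 0.16), and *Slc35d1* lay higher in all 3, at 0.39 (SE 0.18). *Slc35b3*, another PAPS carrier, had the largest negative difference of a member called in the libraries numbered 1, with 11.4 and 17.4 FPKM in control 1 and *Junb*-deficient 1, while the other 4 libraries lay between 20.4 and 36.4 (log2 difference -1.03, adjusted p = 0.0310). That call was lost without control 1, 2 or 3 (-0.47, -0.95 and -0.95) or without *Junb*-deficient 2 (-1.0), and with no filter or without the trend.

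In the remaining classes no member rose or fell between the genotypes. *Slc44a2*, a choline carrier-like protein, had a mean of 82.0 ± 11.6 FPKM over the controls and of 95.0 ± 3.39 over the *Junb*-deficient ones (SD, n = 3 each), a log2 difference of 0.22 (SE 0.18). *Slc19a1*, the reduced folate carrier, and *Slc48a1*, a heme carrier, followed at 16.1 and 14.7 FPKM. Of the vesicular, lysosomal and other carriers, *Slc17a9*, which fills vesicles with ATP, *Slc14a1*, a urea carrier, and *Slc45a4* were the highest. Their means were 23.2, 18.3 and 13.9 FPKM. *Slc23a2*, an ascorbate importer, was higher in the libraries numbered 1 by 0.74 (adjusted p = 0.0143), and *Slc14a1* was lower by 0.66 on the log2 scale (adjusted p = 0.0179). *Slc9a3r1*, at 122 FPKM, was the most abundant of the genes that are not carriers, followed by *Slc7a6os* at 27.0 and *Slc4a1ap* at 13.4.

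The genes around these carriers were read from lists of their pathways. None of 16 glycolysis genes, 16 genes of amino acid sensing by mTORC1, 12 genes of purine and pyrimidine salvage or 8 partner genes of Slc carriers rose or fell between genotypes. With the replicate block, *Sesn3*, a sestrin, and *Rptor*, an mTORC1 subunit, rose by 0.65 and 0.52 on the log2 scale, while *Lamtor3*, of the complex that holds mTORC1 at the lysosome, had -0.55, *Hprt*, which salvages purine bases, -0.60 and *Atox1*, a copper chaperone, -0.55, and these 3 fell. Of 11 genes of metal storage and buffering, the metallothioneins *Mt1* and *Mt2*, which bind zinc and copper, fell and none rose. *Mt1* read 13.5, 5.98 and 4.43 FPKM in controls 1 to 3 and 4.73, 1.60 and 3.07 FPKM in *Junb*-deficient libraries 1 to 3. *Mt2* read 2.72, 1.92 and 3.00 FPKM in controls 1 to 3 and 0.897, 0.255 and 0.292 FPKM in *Junb*-deficient libraries 1 to 3. The groups were apart for *Mt2* and overlapped for *Mt1*, where *Junb*-deficient 1 lay above control 3, and the log2 differences were -1.06 and -1.27 (SE 0.43 and 0.31). *Mt2* is low enough that the pseudocount of 1 FPKM shrinks its difference. Of 10 other mitochondrial transport genes, *Vdac3*, an outer membrane channel, fell with no overlap (log2 difference -0.85, SE 0.23, adjusted p = 0.834), and with the block *Brp44*, a subunit of the pyruvate carrier, and *Mtch2*, of the outer membrane, fell as well, at -0.58 and -0.55. *Hk2* and *Pkm2* of glycolysis were higher in the libraries numbered 1, at 1.21 and 0.64 (adjusted p = 0.0274 and 0.0424), and *Ldhb* was lower by 0.94 on the log2 scale (adjusted p = 0.0106). Of the 16 sensing genes, 3 were higher there, *Sesn2*, *Sesn3* and *Rptor*, at 1.07, 0.82 and 0.68, and 4 were lower. Of the 12 salvage genes none was higher and 4 were lower, *Hprt* among them at -0.79. Of the 11 metal storage genes, 2 were higher, *Mt1* at 1.03 and *Tfrc*, the transferrin receptor, at 0.68, and *Atox1* was lower at -0.78. Of the 10 mitochondrial transport genes, *Brp44* and *Mtch2* were lower, at -1.12 and -0.76, and none of the 8 partner genes was called. Over all genes 8.66% were higher and 11.8% lower. With the length trend removed, 2 sensing genes were higher and 2 lower, and the call of *Rptor* was lost (0.35). Of the salvage genes 1 was then higher and 3 lower. The counts of the other lists did not change, beside 8.05% higher and 9.56% lower over all genes.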

How the data were processed

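RNA was sequenced in 6 libraries of sorted Treg cells, 3 of each genotype. The deposited values are FPKM per gene, made by the authors from a stranded kit; the submitters' processing notes name TopHat2 2.2.1, Cufflinks and mm9. How strand and reads with several matches were counted was not given in the sources used here. The study states a minimum read depth per sample, but the values hold no read counts. The exact depth of each library is therefore unknown, and no counting intervals are given. All 37305 gene identifiers matched the GENCODE annotation of the build, which gave positions and exon lengths, and promoters came from RefSeq (GRCm38.p6).

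Genes with a mean of at least 1 FPKM (11781) were tested with limma 3.58.1 in R 4.3.3 on log2(FPKM + 1), computed here from the deposited FPKM, with a mean-variance trend, 2-sided, with Benjamini-Hochberg adjustment over all of them. The pseudocount of 1 FPKM understates differences of low genes. The thresholds of 0.05 for p and 0.5 on the log2 scale are those the study gives with its results. It does not say whether its p-values were adjusted, and here they were taken before adjustment. Nor does it say that its fold changes were taken on the log2(FPKM + 1) scale used here. With 3 libraries on each side, an exact permutation test gives 0.1 at the least, also where the groups are fully apart. No source says whether the libraries were from different mice, so p-values measure the spread between these samples. Over 11781 genes the deviations of same-numbered libraries correlated at 0.57, 0.42 and 0.24 for numbers 1, 2 and 3. Those of the other pairs correlated at -0.53 to 0.41, so only number 1 stood out as a pair. The replicate block is given where it changes a call.

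Named were the 3 highest members of each class, every member that passed the genotype rule, members past an adjusted p of 0.05 and a log2 difference of 1 in the libraries numbered 1, up to 5 non-overlapping members per direction, a fixed set of well-known carriers, and pathway genes that passed. Results of some genes are not reported here. Further members were named after their values were seen. The members, classes and lists were chosen with earlier results of these data known. The exon length correction subtracted a loess trend (span 0.5) and was chosen after seeing the data. The test was checked on simulated data with independent noise in each library. These data held no shift of the libraries numbered 1 and no length trend, so the check does not cover those features. Figures were drawn with matplotlib 3.10.9 from tables made with pandas 2.3.3 in Python 3.11.15.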

Additional observations from a re-analysis of the deposited data

How the results depend on the processing

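The precision is limited by 3 libraries a genotype and by a depth known only as a minimum. Small differences could change sign, as that of *Slc2a3* between the genotypes did, from -0.07 to 0.03 without both libraries numbered 1. The carriers that rose or fell kept their direction under all 17 alternatives run for the genotype comparison. Those called with a log2 difference beyond 1 in the libraries numbered 1 kept it under all 13 run there. The balance over all genes did not: for the libraries numbered 1, the 1020 higher and 1393 lower genes became 685 and 244 with no filter, 271 and 124 without control 1 and 502 and 491 without control 3, and the median genotype difference of all genes went from -0.05 to 0.01 with quantile scaling. Between the genotypes, the carriers that fell numbered 0 with no filter, 1 with a minimum mean of 5 FPKM, 4 with the replicate block, 4 with a term for the lane suffix and 6 without both libraries numbered 1, where 15 rose. The genes that rose numbered 131 with a minimum mean of 5 FPKM and 396 with the replicate block and exon length correction together. With the replicate block 422 genes rose and 848 fell, with the lane suffix term 415 and 840, and without both libraries numbered 1 780 and 1528. Leaving out 1 library gave 2 to 17 carriers risen and 0 to 7 fallen, and 95 to 788 genes risen and 204 to 1532 fallen. For the libraries numbered 1, the carriers higher and lower numbered 6 and 2 with no filter, 5 were lower without the trend, and 244 genes were lower with no filter. Leaving out 1 library gave 4 to 19 carriers higher and 0 to 10 lower, and 271 to 1090 genes higher and 124 to 1462 lower; where this left 1 library numbered 1, it was assumed to vary like the others. The causes were not tested. Of the values of these called carriers under the alternatives, 180 kept their call and 43 lost it. The replicate block changed no call of a member other than the 4 it added.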
